A study of Homo sapiens with 10 samples.

Results

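TXNIP, its relatives ARRDC1 to ARRDC4, and the transcription factors MLX and MLXIP are 7 genes of the alpha-arrestin family and its glucose-responsive regulators. They were taken by gene symbol from a table of read counts with 28380 genes, and all 7 were among the 13378 genes with enough counts to be tested. The cells were RPE-1, an established human line of retinal pigment epithelial origin immortalised with telomerase. In complete medium they received either the vehicle DMSO or 25 µM sulforaphane (SFN), an isothiocyanate from cruciferous vegetables, and after 4 h RNA was taken from 5 replicates of each treatment. Both groups shared the line, the medium and the time, so that only the addition of SFN differed by label. Whether the replicates were grown as separate cultures is not given in the sources used here, and the p-values measure only the spread between these libraries.

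Alpha-arrestins are adaptor proteins that bind membrane proteins and bring ubiquitin ligases of the NEDD4 family to them, which leads to their removal from the cell surface. TXNIP also binds thioredoxin and promotes the uptake of glucose transporters into the cell, so that it acts as a brake on glucose entry. MLXIP, also called MondoA, is held outside the nucleus until glucose phosphates accumulate, and then binds DNA as a dimer with MLX at carbohydrate response elements, with TXNIP and ARRDC4 among its known targets.

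The libraries had between 12375860 and 20666692 counts. The study's methods name a kit that reads the 3′ ends of transcripts, while the labels name standard Illumina protocols, and so levels in CPM (counts scaled to a common library total with TMM factors) are compared between libraries and not between genes. DMSO replicate 1 stood apart from the other DMSO libraries, with a mean Spearman correlation across genes of 0.935 with them. Each of the others had a mean of 0.979 to 0.982 with the rest of the group, replicate 1 included. The TMM factor of DMSO replicate 1 was 0.886. Fold changes and calls of the 7 genes that depend on this library are therefore also given without it. Of 10 markers of differentiated retinal pigment epithelium, 8 had a row and 4 were tested, namely BEST1, MITF, OTX2 and PMEL, while RPE65, RLBP1, TTR and TYRP1 were at or near 0 in both groups. MITF (log2 fold change -1.12, adjusted p = 5.3e-05, edgeR) and OTX2 (-0.64, adjusted p = 0.0029) were lower in SFN without overlap, and BEST1 and PMEL did not pass. BEST1 had 41.8 CPM in DMSO replicate 1 beside 5.42 to 18.2 CPM in the other DMSO libraries. Without that library BEST1 was higher in SFN without overlap (1.68, adjusted p = 0.0096, edgeR), and PMEL still did not pass. Of 5 markers of the cultured line, the cytoskeletal genes KRT8, KRT18 and VIM and the cadherin CDH2 were abundant in both groups and did not pass. Without DMSO replicate 1, KRT8 was higher (0.37, adjusted p = 0.016, edgeR), and KRT18, VIM and CDH2 did not pass. The fifth, TERT, the telomerase catalytic subunit, went from 1.45 ± 0.193 to 0.264 ± 0.161 CPM without overlap (SD, n = 5; log2 fold change -2.46, adjusted p = 4.4e-04, edgeR). Summed over the list, the pigment epithelium markers lay between 62.1 and 104 CPM in DMSO and between 55.1 and 136 CPM in SFN, where BEST1 alone reached 107 CPM in a library. Of 4 blood markers, PTPRC and CD14 had a row, and their sum was at most 0.137 CPM in DMSO and between 0.282 and 1.43 CPM in SFN. CD14 had 3 counts in all DMSO libraries together and 49 in SFN, and PTPRC had 4 and 8. Endothelial markers summed to at most 0.560 CPM in DMSO and 0.298 CPM in SFN, and photoreceptor and neural markers to at most 0.365 and 0.298 CPM. The part of these markers in the results was not tested.

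TXNIP was the member with the largest change. Its level in DMSO replicates 1 to 5 was 5.48, 7.84, 9.11, 9.94 and 9.41 CPM, and in SFN replicates 1 to 5 it was 0.656, 0.518, 0.298, 0.810 and 0.494 CPM. Every SFN library was far below every DMSO library, and the lowest DMSO value was that of replicate 1. The level was 14.7-fold lower in SFN (log2 fold change -3.88, standard error (SE) 0.26, 95% confidence interval -4.45 to -3.30, edgeR quasi-likelihood, p adjusted by Benjamini-Hochberg across the tested genes = 1.9e-06). Only 8 of the 13378 tested genes had a larger decrease. Without DMSO replicate 1 the log2 fold change was -3.99. In these bulk samples, fewer cells that express a gene and less RNA per cell cannot be told apart.

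Between 88 and 172 counts lay behind each DMSO value of TXNIP and between 4 and 12 counts behind each SFN value, 747 and 40 in all. The ratio of the summed counts, corrected for library size, was 0.0676 with a 95% exact interval of 0.0479 to 0.0930 that covers counting error only. The dispersion index, the spread of the counts around those expected from library size relative to counting error, was 0.920 in SFN, where pure counting gives 1, and 6.26 in DMSO. The spread between the SFN libraries was therefore no larger than counting alone would give at this depth, whereas the DMSO libraries differed by more than that. The index rises with the number of counts, so the 2 values do not compare the relative spread of the groups. The SD was 21.4% of the mean CPM in DMSO and 34.4% in SFN. DMSO replicate 1 had the 88 counts, and the index was not computed without it.

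ARRDC4, the closest relative of TXNIP in its regulation and also an adaptor for glucose transporters, was the member with the next largest change and the lowest counts. It measured 0.498, 1.82, 1.57, 1.93 and 1.66 CPM in DMSO replicates 1 to 5 and 0.298, 0.604, 0.298, 0.405 and 0.706 CPM in the SFN replicates. The DMSO values of replicates 2 to 5 were all above the SFN values, but DMSO replicate 1, with 8 counts, lay among them. The log2 fold change was -1.70 (SE 0.40, 95% confidence interval -2.57 to -0.83, edgeR quasi-likelihood, adjusted p = 0.0094). Without DMSO replicate 1 the groups did not overlap and the log2 fold change was -1.93 (adjusted p = 1.9e-04, edgeR). The interval of ARRDC4 is the widest of the 7 genes, with 8 to 40 counts in a DMSO library and 4 to 10 in an SFN library.

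ARRDC2, an adaptor for NEDD4-family ligases, fell as well. Its level was 6.35, 6.42, 7.16, 5.12 and 5.09 CPM in the DMSO replicates and 3.46, 2.24, 1.27, 2.43 and 2.61 CPM in the SFN replicates. All SFN values were below all DMSO values, and DMSO replicate 1 was inside the range of its group. The level was 2.49-fold lower (log2 fold change -1.32, SE 0.23, 95% confidence interval -1.82 to -0.81, edgeR quasi-likelihood, adjusted p = 0.0016), and the log2 fold change was -1.30 without DMSO replicate 1.

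ARRDC1, which recruits TSG101 to the plasma membrane and drives the budding of small vesicles there, did not pass the threshold of an adjusted p of 0.05. It measured 7.60, 4.51, 4.47, 4.40 and 4.03 CPM in the DMSO replicates and 3.04, 4.23, 3.72, 2.63 and 3.04 CPM in the SFN replicates. DMSO replicate 1 was high, the remaining DMSO values lay close together, and SFN replicate 2 reached into their range. The log2 fold change was -0.59 (SE 0.22, 95% confidence interval -1.06 to -0.12, edgeR quasi-likelihood, adjusted p = 0.071), and it was -0.40 (adjusted p = 0.065) without DMSO replicate 1.

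ARRDC3, an adaptor for membrane proteins such as integrin beta4, was at similar levels in both groups. The DMSO replicates had 21.1, 25.8, 29.7, 25.4 and 26.3 CPM and the SFN replicates 26.2, 21.6, 26.5, 23.7 and 23.2 CPM. The ranges overlapped almost entirely. The log2 fold change was -0.08 (SE 0.12, edgeR quasi-likelihood, adjusted p = 0.67), and the 95% confidence interval of -0.33 to 0.17 excludes a change of the size seen for TXNIP, ARRDC2 or ARRDC4.

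**Figure D1:**
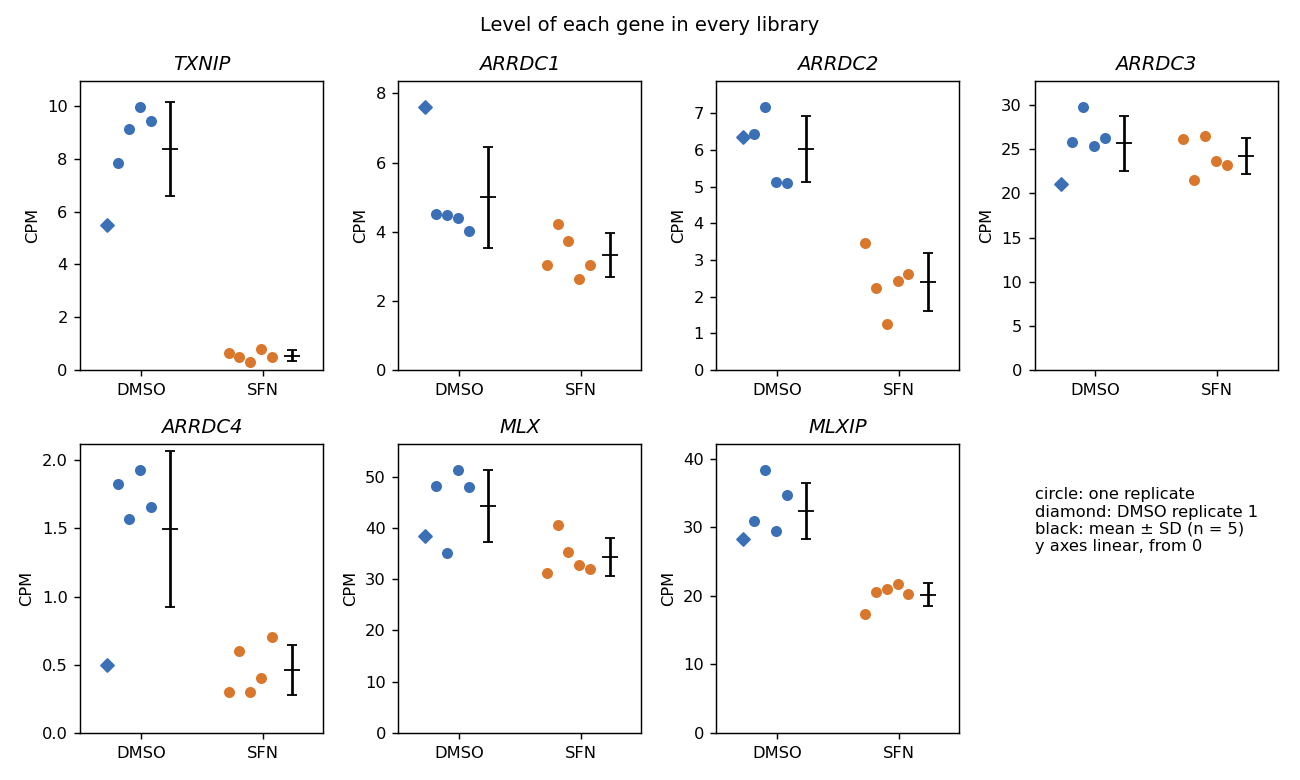
Level of each of the 7 genes in CPM (linear axes from 0) in the DMSO libraries, in blue, and the SFN libraries, in orange, with mean ± SD in black (n = 5); a diamond marks DMSO replicate 1. The SFN values of TXNIP, ARRDC2 and MLXIP lie below all DMSO values, those of ARRDC4 lie below all but DMSO replicate 1, and those of ARRDC3 lie within the DMSO range.

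The DNA-binding pair itself changed less. MLXIP measured 28.3, 30.9, 38.4, 29.5 and 34.7 CPM in the DMSO replicates and 17.4, 20.5, 20.9, 21.7 and 20.3 CPM in the SFN replicates, without overlap. Its mean was 37.6% lower in SFN (log2 fold change -0.68, SE 0.12, 95% confidence interval -0.94 to -0.43, edgeR quasi-likelihood, adjusted p = 0.0013), and the log2 fold change was -0.73 without DMSO replicate 1. MLX, the dimer partner of MLXIP, had 38.5, 48.2, 35.1, 51.3 and 47.9 CPM in the DMSO replicates and 31.2, 40.5, 35.3, 32.7 and 32.1 CPM in the SFN replicates. DMSO replicates 1 and 3 were low and SFN replicate 2 was high, so the groups overlapped. The log2 fold change of MLX was -0.36 (SE 0.13, 95% confidence interval -0.65 to -0.08, adjusted p = 0.068, edgeR). Without DMSO replicate 1 it was -0.42 and past the threshold (adjusted p = 0.0097), and it also passed without DMSO replicate 3 (-0.44, adjusted p = 0.036) and without SFN replicate 2 (-0.43, adjusted p = 0.047). MLXIPL, which encodes the MLXIP relative ChREBP, had 1 count in the 10 libraries together and could not be tested.

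In the edgeR quasi-likelihood fit, 4 of the 7 genes were lower in SFN (TXNIP, ARRDC2, ARRDC4 and MLXIP) and 0 were higher at an adjusted p under 0.05. The background over all 13378 tested genes was 13.9% lower and 9.07% higher, or 1862 and 1214 genes. With library sizes alone, without TMM factors, the split was 2163 lower and 819 higher, and 6 of the 7 genes were lower. At an unadjusted p under 0.05, 6 of the 7 were lower and 0 higher, and the share of all tested genes at that limit was not computed. Differentially expressed genes with a change of more than 2-fold were 3 of the 7, all lower, against a background of 5.76% lower and 2.94% higher. The values did not overlap for 3 of the 7 genes with SFN below DMSO, against a background of 11.1%, and for 0 with SFN above DMSO, against 8.78%. All 7 log2 fold changes were negative, as were 52.6% of all tested, and their median was -0.68 beside -0.03 for all tested genes. Without DMSO replicate 1, MLX was added to the genes that passed, making 5 lower, against a background of 23.5% lower and 22.5% higher, and the values did not overlap for 4, against a background of 19.5%.

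**Figure D2:**
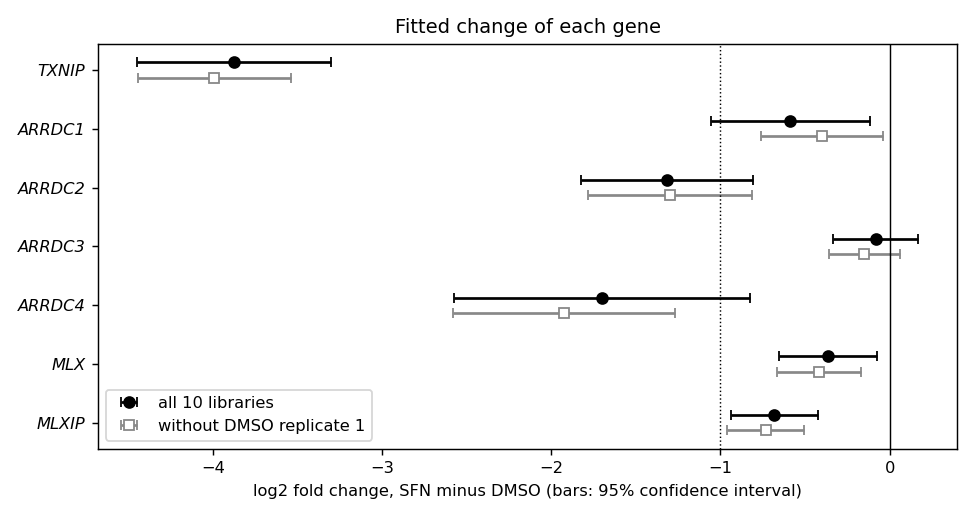
Log2 fold change of each gene, SFN minus DMSO, with 95% confidence intervals from edgeR, for all 10 libraries (black circles) and without DMSO replicate 1 (open squares); the solid line marks no change and the dotted line a 2-fold decrease. The intervals of TXNIP lie between -4.45 and -3.30 with all libraries, and only that of ARRDC3 includes 0 in both fits.

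The promoters of TXNIP and ARRDC4 are shown because both genes fell and both are known targets of the MLXIP and MLX dimer, and a stretch of the MLX promoter is shown for its E-box. The windows run from 250 bases before to 50 bases after the start site in RefSeq (GRCh38.p14), in the direction of the gene. TXNIP spans 145992435 to 145996579 on the minus strand of chromosome 1 and its window is chr1:145996530-145996829. ARRDC4 spans 97960703 to 97973833 on the plus strand of chromosome 15 and its window is chr15:97960453-97960752. The MLX stretch, chr17:42567020-42567069 on the plus strand, covers positions -80 to -31. Capitals mark matches to a pair of E-box-like elements (CACGNG, 5 further bases, CACGNG), to the E-box CACGTG, and to CCAAT or its reverse complement ATTGG, the box bound by the factor NF-Y.
TXNIP: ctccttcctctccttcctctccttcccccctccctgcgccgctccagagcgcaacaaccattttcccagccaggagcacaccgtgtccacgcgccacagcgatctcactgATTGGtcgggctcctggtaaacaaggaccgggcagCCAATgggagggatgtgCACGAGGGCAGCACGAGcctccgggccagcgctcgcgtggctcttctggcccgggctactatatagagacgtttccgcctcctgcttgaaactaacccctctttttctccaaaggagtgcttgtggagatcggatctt
ARRDC4: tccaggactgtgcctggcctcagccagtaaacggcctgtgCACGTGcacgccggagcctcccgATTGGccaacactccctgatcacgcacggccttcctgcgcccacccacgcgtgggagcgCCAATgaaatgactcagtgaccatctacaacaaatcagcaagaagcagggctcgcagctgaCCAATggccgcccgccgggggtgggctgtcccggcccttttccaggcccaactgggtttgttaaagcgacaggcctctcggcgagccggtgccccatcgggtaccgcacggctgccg
MLX: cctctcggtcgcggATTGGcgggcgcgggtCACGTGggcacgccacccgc

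In the TXNIP window the paired elements lay at positions -88 to -72 and CCAAT boxes at -140 to -136 and -105 to -101. In the ARRDC4 window an E-box lay at -210 to -205 and CCAAT boxes at -187, -128 and -67. MLX had an E-box at -50 to -45 next to a CCAAT box at -66. Among the windows that hold the annotated start of the other genes, ARRDC1, ARRDC3 and MLXIP had 1 CCAAT box each and no E-box, and ARRDC2 had no match. The paired elements were found in 20 of 35116 RefSeq windows of this length on either strand (0.057%), CACGTG in 7.26%, CCAAT in 34.6% and at least 2 CCAAT boxes in 10.8%. The E-box letters can form part of a paired match. A match describes the letters only, and no binding was measured in these data.

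**Figure D3:**
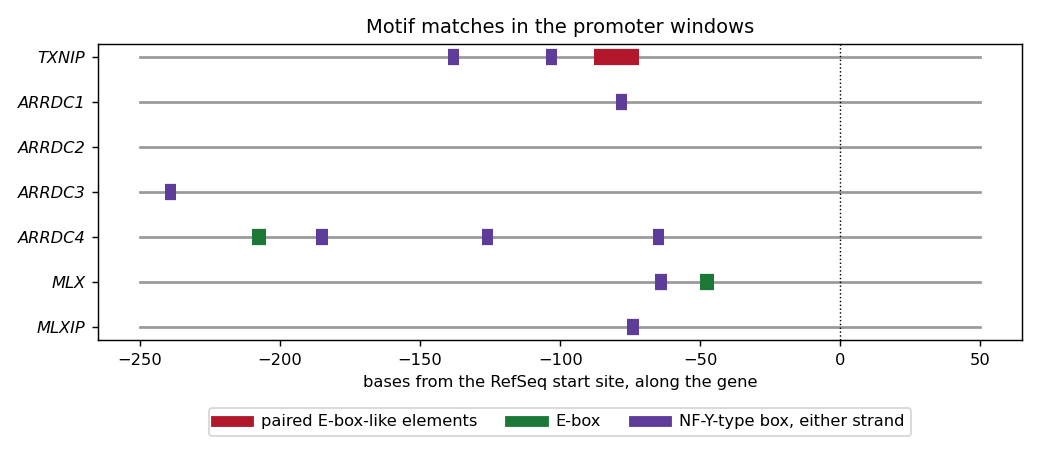
Position of the motif matches in bases from the RefSeq start site, along each gene, in the window that holds its annotated start: paired E-box-like elements in red, E-boxes in green and the CCAAT box bound by NF-Y, on either strand, in purple. Red occurs in TXNIP, at -88 to -72, and green in ARRDC4 and MLX.

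The ratio of counts of a gene pair within a library does not depend on the scaling between libraries, and it was used to test whether TXNIP changed more than its relatives. As a share of the summed counts of TXNIP and ARRDC1 to ARRDC4, TXNIP made up 13.4, 16.9, 17.5, 21.3 and 20.3% in DMSO replicates 1 to 5. In SFN replicates 1 to 5 it made up 1.95, 1.78, 0.928, 2.70 and 1.64%. The share was lower in every SFN library than in every DMSO library, and the 95% exact (Clopper-Pearson) intervals, which cover counting error only, ran from 10.8 to 16.2% in the lowest DMSO library and from 1.40 to 4.67% in the highest SFN library.

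The mean log2 ratio of TXNIP to ARRDC4, with 0.5 added to each count, went from 2.56 ± 0.486 in DMSO to 0.26 ± 0.699 in SFN (SD, n = 5), a difference of -2.30. The ratio of TXNIP to ARRDC2 went from 0.45 to -2.04, a difference of -2.49, that to ARRDC1 from 0.75 to -2.56, a difference of -3.30, and that to ARRDC3 from -1.64 to -5.42, a difference of -3.78. TXNIP thus fell more than each of the other alpha-arrestins, without overlap between the groups in any of these ratios (exact two-sided permutation test over all splits of 5 against 5, p = 0.00794 for each, the smallest this design allows, adjusted p = 0.00992 over the 5 ratios compared). Without DMSO replicate 1 the differences were -2.10 for TXNIP to ARRDC4, -2.66 for TXNIP to ARRDC2 and -3.61 for TXNIP to ARRDC1. That of TXNIP to ARRDC3 lay between -3.94 and -3.56 with each library left out. The ratio of MLXIP to MLX went from -0.44 to -0.76, and the difference of -0.32 did not pass (p = 0.0794, adjusted p = 0.0794, exact permutation test). It passed without DMSO replicate 4 (-0.41, adjusted p = 0.0159, exact permutation test).

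**Figure D4:**
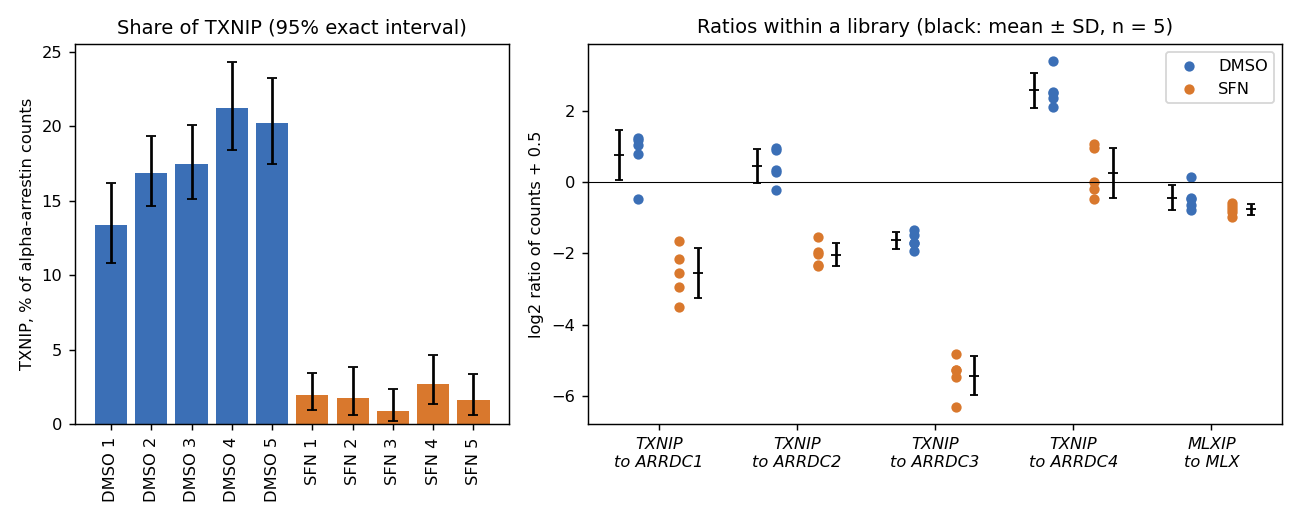
Left, share of TXNIP in the summed counts of TXNIP and ARRDC1 to ARRDC4 in each library, with 95% exact intervals; right, log2 ratio of counts (0.5 added) within each library for DMSO (blue) and SFN (orange), with mean ± SD in black (n = 5). The DMSO and SFN points are apart in each ratio that involves TXNIP and overlap for MLXIP to MLX.

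Some members overlap other genes in the annotation, and whether the authors' counting used strand is not given in the sources used here. ARRDC1-AS1, on the opposite strand, overlaps the end of ARRDC1 by 35 bases. It measured 6.75 ± 0.577 CPM in DMSO and 6.56 ± 0.402 CPM in SFN (log2 fold change -0.04, edgeR quasi-likelihood, adjusted p = 0.85). PSMC3IP overlaps MLX by 930 bases, at the 3′ end of both genes, and measured 143 ± 15.4 CPM in DMSO and 144 ± 12.5 CPM in SFN (SD, n = 5; log2 fold change 0.01, adjusted p = 0.97, edgeR). ARRDC3-AS1 overlaps ARRDC3 by 2969 bases near its start and had too few counts to be tested, at most 1.02 CPM in a library. If strand was not used, reads of MLX and PSMC3IP in the shared bases cannot be told apart. No other gene with a row in the counts overlaps TXNIP, ARRDC2, ARRDC4 or MLXIP, and annotated genes without a row were not considered.

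The levels of 5 genes followed that of TXNIP most closely over the 10 libraries, by the Pearson correlation of log2 CPM among 12573 genes with a mean of at least 1 CPM. These were ZNF827 (0.995), FZD2, a Wnt receptor (0.993), MAB21L1 (0.991), TRHDE-AS1 (0.990) and KCNS3, a potassium channel subunit (0.990). All 5 were lower in SFN, with log2 fold changes of -1.38, -1.43, -2.38, -1.97 and -1.17 in this order (edgeR quasi-likelihood, adjusted p between 2.9e-07 and 8.4e-05). Such correlations are dominated by the difference between the groups and describe shared libraries. Closest to ARRDC3 were KLHL26 (0.929), HIP1R (0.912), UBQLN4 (0.903), SARS2 (0.891) and METAP1 (0.869), none of which passed the test, with log2 fold changes between -0.31 and -0.04, although HIP1R passed without DMSO replicate 1 (-0.37, adjusted p = 0.028).

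Among the other genes of the arrestin fold, the beta-arrestins and the retromer-like VPS26 group, 6 of 9 listed could be tested. Of these, 1 was lower and 1 higher, beside 13.9% and 9.07% of all tested genes. ARRB1, beta-arrestin 1, went from 2.39 ± 0.322 to 1.54 ± 0.304 CPM (SD, n = 5; log2 fold change -0.63, edgeR quasi-likelihood, adjusted p = 0.044). VPS26A, a retromer subunit, went from 262 ± 36.6 to 344 ± 20.6 CPM (log2 fold change 0.39, adjusted p = 0.032, edgeR). Both calls were fragile, since ARRB1 passed in 6 and VPS26A in 7 of 17 alternative fits.

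Of 16 partners and cargoes of the alpha-arrestins, 14 were tested, with 3 lower and 1 higher, beside 13.9% and 9.07% of all tested genes. Thioredoxin itself, TXN, did not pass (log2 fold change 0.14, edgeR quasi-likelihood, adjusted p = 0.83), but this rested on DMSO replicate 1, with 531 CPM beside 142 to 177 CPM in the other DMSO libraries and 172 to 370 CPM in SFN. Without that library TXN was higher in SFN (0.70, adjusted p = 0.0032). PRKAA2, a catalytic subunit of the energy sensor AMPK, which phosphorylates TXNIP, had a log2 fold change of -0.67 (adjusted p = 0.0039, edgeR). DDIT4, or REDD1, which forms a complex with TXNIP and restrains mTOR, was the gene that rose, with between 3.51 and 5.67 CPM in DMSO and between 74.1 and 120 CPM in SFN.

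SLC2A3, the glucose transporter GLUT3, went from 13.1 ± 1.22 to 9.47 ± 0.981 CPM without overlap (SD, n = 5; log2 fold change -0.47, edgeR quasi-likelihood, adjusted p = 0.014). PRKAA1, the other AMPK catalytic subunit, had a log2 fold change of -0.43 (adjusted p = 0.026), passed in 11 of 17 alternative fits and was chosen for mention after its value was seen. SLC2A1, which encodes GLUT1, the transporter best known as a TXNIP cargo, did not pass (-0.17, adjusted p = 0.50), again through DMSO replicate 1, which had 141 CPM beside 231 to 263 CPM in the other DMSO libraries and 195 to 212 CPM in SFN. Without it the groups did not overlap and SLC2A1 was lower (-0.30, adjusted p = 0.0038). The NEDD4-family ligases ITCH, NEDD4, NEDD4L, WWP1 and WWP2 did not pass either, with log2 fold changes between -0.16 and 0.18, but WWP2 did without that library (-0.29, adjusted p = 0.028). Without DMSO replicate 1 the counts for the list were 5 lower and 4 higher of 14, where 23.5% and 22.5% of all tested genes were called.

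The network of MLX and MAX partners held larger changes than MLX or MLXIP did. Of 8 tested genes, 3 were lower and 3 higher, beside 13.9% and 9.07% of all tested genes. Without DMSO replicate 1 the counts were again 3 and 3, beside 23.5% and 22.5%. MXD1, a repressor that dimerises with MAX or MLX, measured between 2.24 and 5.54 CPM in DMSO and between 39.4 and 55.8 CPM in SFN, which is 9.67-fold higher (log2 fold change 3.27, SE 0.22, edgeR quasi-likelihood, adjusted p = 1.9e-06). MGA, a large repressor that dimerises with MAX, measured between 29.5 and 50.3 CPM in DMSO and between 3.54 and 8.33 CPM in SFN, a 6.83-fold decrease (log2 fold change -2.77, SE 0.22, adjusted p = 5.8e-06, edgeR). MYC rose 2.19-fold, from 46.4 ± 3.07 to 102 ± 13.6 CPM (SD, n = 5; adjusted p = 3.1e-05). The DMSO and SFN values did not overlap for any of these genes.

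MLX is known to pair with MXD1, MXD4 and MNT besides MLXIP. MXD4 (log2 fold change 0.46, edgeR quasi-likelihood, adjusted p = 0.025) and MNT (-0.75, adjusted p = 0.038) also passed, as did MXD3 (-0.67, adjusted p = 0.033), and these were named after their values were seen. MXD4 passed in 10, MNT in 6 and MXD3 in 11 of 17 alternative fits, whereas MXD1, MGA and MYC passed in all 17. MAX, the common partner in the network, did not pass (0.22, adjusted p = 0.18).

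Genes of the carbohydrate response, which are known to react to glucose through MLXIP or ChREBP, were mixed. Of 11 tested, 3 were lower and 0 higher, beside 13.9% and 9.07% of all tested genes, and the median was 0.07. At an unadjusted p under 0.05 it was also 3 lower and 0 higher, for which the share of all tested genes was not computed. BHLHE40, a repressor of the circadian clock, went from 21.1 ± 0.774 to 10.6 ± 0.541 CPM (1.99-fold lower, edgeR quasi-likelihood, adjusted p = 2.2e-05). HK2, the hexokinase that makes glucose 6-phosphate, went from 92.5 ± 3.52 to 53.6 ± 3.42 CPM (log2 fold change -0.79, adjusted p = 7.4e-05). PFKFB3, a regulator of glycolysis, had a log2 fold change of -0.49 (adjusted p = 0.038) and passed in 5 of 17 alternative fits. The lipogenic genes FASN, ACACA, ACLY, SCD and ELOVL6 did not pass, with log2 fold changes between -0.20 and 0.20. All 5 were low in DMSO replicate 1, as with FASN at 49.1 CPM beside 126 to 170 CPM in the other DMSO libraries. Without that library ACACA was lower (-0.43, adjusted p = 0.020), the other 4 did not pass, and the list had 4 lower and 0 higher with a median of -0.08, against a background of 23.5% lower.

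In the hexosamine pathway, which makes the sugar donor for protein glycosylation from fructose 6-phosphate, 9 of 11 genes did not pass. Of the 11, 1 was lower and 1 higher, beside 13.9% and 9.07% of all tested genes. GFPT1, the enzyme at the entry of the pathway, had a log2 fold change of 0.26 (edgeR quasi-likelihood, adjusted p = 0.15). AMDHD2, which removes the acetyl group from GlcNAc 6-phosphate, was lower (-0.98, adjusted p = 0.022), with 60.3 CPM in DMSO replicate 1 and between 22.9 and 30.7 CPM in the other DMSO libraries. Without that library its log2 fold change was -0.63 (adjusted p = 0.0020). GNPDA1, which returns glucosamine 6-phosphate to glycolysis, was higher (0.41, adjusted p = 0.0077).

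Of 11 factors reported at the TXNIP promoter, 4 were lower and 1 higher, beside 13.9% and 9.07% of all tested genes, and without DMSO replicate 1 it was 6 and 2, beside 23.5% and 22.5%. NFYA, a subunit of NF-Y, went from 70.5 ± 14.1 CPM in DMSO to 22.4 ± 4.22 CPM in SFN (SD, n = 5), a 3.14-fold decrease without overlap (log2 fold change -1.65, SE 0.18, edgeR quasi-likelihood, adjusted p = 6.4e-05). Its partner subunits NFYB (-0.12, adjusted p = 0.47) and NFYC (0.09, adjusted p = 0.67) did not pass. FOXO1 went from 1.36 ± 0.361 to 0.504 ± 0.265 CPM (log2 fold change -1.45, adjusted p = 0.011). HBP1, an HMG-box repressor, rose 2.64-fold, from 18.8 ± 4.14 to 49.7 ± 6.09 CPM (log2 fold change 1.40, adjusted p = 1.2e-04).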

How the data were processed

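RNA from RPE-1 cells (50000 per replicate) was made into QuantSeq 3′ libraries and aligned with Bluebee's pipeline according to the study's methods, while the labels name standard Illumina protocols. The authors deposited raw read counts per gene, and the submitters' processing notes name FastQC, STAR, featureCounts, edgeR and GRCh38, with versions, strand and molecular identifiers not given in the sources used here. Of 28380 rows, 46 had no symbol. Counts were filtered with filterByExpr, scaled with TMM factors and tested for SFN against DMSO with edgeR 4.0.16 (quasi-likelihood, R 4.3.3) on all 10 libraries, with p-values adjusted by Benjamini-Hochberg across the tested genes. The threshold was an adjusted p of 0.05, and a differentially expressed gene also had an absolute log2 fold change above 1. The groups came from the labels. The fits were tested on simulated data.

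The members and gene lists were chosen with earlier results of these data known, and no set test was run. A gene of the partner list is not reported here. Named genes were the members, genes overlapping them or named as their antisense RNA, the 3 largest changes past the threshold per list, and the 5 genes most like TXNIP and ARRDC3 (log2 CPM with a prior count of 2). Alternatives were DESeq2 1.42.0 (its test and its size factors), library sizes alone, limma-voom 3.58.1 with quantile normalization or sample quality weights, no filter, a replicate block, each library left out, and 2 counts added in ratios. No replicate pair agreed within sampling noise (chi-square per degree of freedom 3.71 to 281). Pairs with DMSO replicate 1 had 263 to 281, the other DMSO pairs 3.71 to 14.3 and the SFN pairs 4.07 to 74.6. Gene positions are from GENCODE on GRCh38.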

Additional observations from a re-analysis of the deposited data

Results flagged for a closer look

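In each group of 5 libraries, the gap between the most extreme value and its neighbour was divided by the range of the group and compared with Dixon's limit of 0.71, which chance exceeds in about 1 of 20 groups. Of 84 groups examined, 13 exceeded it, about 4 being the number chance would give, and 8 of the 13 came from DMSO replicate 1. Among the 7 genes, ARRDC1 was high in DMSO replicate 1 (0.864; 7.60 CPM beside 4.03 to 4.51 in the others) and ARRDC4 was low there (0.747; 0.498 CPM beside 1.57 to 1.93). The log2 ratio of TXNIP to ARRDC1 was low in the same library (0.748; -0.47 beside 0.79 to 1.22).

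DMSO replicate 1 was also low for MXD1 (0.811), PFKFB3 (0.786), NFYA (0.771) and MAB21L1 (0.712) and high for AMDHD2 (0.792). ARRDC3-AS1 was high in DMSO replicate 4 (0.770). SFN replicate 5 was low for PSMC3IP (0.790) and high for PRKAA2 (0.728) and HBP1 (0.718), and SFN replicate 2 was low for UBQLN4 (0.743). The cause of these values was not tested.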

How the results depend on the processing

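TXNIP, ARRDC2, ARRDC4 and MLXIP kept their direction and stayed past the threshold in all 17 alternative fits, and ARRDC3 stayed short of it in all 17. The log2 fold change lay between -4.05 and -3.72 for TXNIP, -1.49 and -1.16 for ARRDC2, -2.21 and -1.56 for ARRDC4, and -0.77 and -0.61 for MLXIP. ARRDC1 passed with library sizes alone (-0.65, adjusted p = 0.023) and with sample quality weights (-0.48, adjusted p = 0.0095). MLX passed with library sizes alone (-0.46), the DESeq2 test (-0.35) and quality weights (-0.51), and lay between -0.44 and -0.31 with each library left out. Between 4 and 6 members were lower across all fits, by edgeR, DESeq2 or limma, and 0 were higher. Library sizes alone moved the median log2 fold change of all genes from -0.03 to -0.11. All tested genes lower and higher numbered 4041 and 3874 with quality weights, and between 1470 and 3193 and between 906 and 3058 with each library left out, the highest without DMSO replicate 1. The ratio of MLXIP to MLX differed by between -0.41 and -0.18 with each library left out. Counts of a few genes in the lists moved as follows, with the cause not tested. Other arrestin-fold genes lower were 0 with quantile normalization, no filter or the block, 2 with quality weights and between 0 and 1 with a library left out; those higher were 0 with library sizes alone, quantile normalization, no filter or the block, and between 0 and 1 with a library left out. Partners lower were 7 with quality weights, 1 with no filter and between 2 and 5 with a library left out; those higher were 4 with quality weights and between 1 and 4 with a library left out. Of the MLX and MAX network, 1 was lower with quantile normalization and between 1 and 3 with a library left out. In the carbohydrate list 1 was higher with no filter. In the hexosamine list 0 were lower with quantile normalization, 2 with quality weights and between 0 and 1 with a library left out; 0 were higher with library sizes alone or no filter and 2 with quality weights. Of the promoter factors, 3 were higher with quality weights and between 1 and 2 with a library left out. Signs near 0 turned for ARRDC1-AS1 (0.16 with quantile normalization, 0.013 with quality weights), PSMC3IP (-0.072 with library sizes alone and with quantile normalization, -0.0024 with no filter, and between -0.051 and 0.062 with a library left out), SARS2 (0.040 with quantile normalization) and METAP1 (between -0.092 and 0.0050 with a library left out).

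The replicate numbers are shared between the groups, but apart from number 5 same-numbered libraries did not deviate together (correlations of 0.039, -0.27, -0.060, 0.031 and 0.48 for numbers 1 to 5). Number 5 was the 1 of the 5 that correlated best with its own number. With the replicate block, 1530 genes were lower and 911 higher, the log2 fold change of TXNIP was -3.87 (edgeR quasi-likelihood, adjusted p = 1.1e-04), and no call among the 7 genes changed. ARRDC4 and, in SFN, TXNIP rest on few counts, so depth limits the precision of their folds.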

Other observations

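The paired E-box-like elements of the TXNIP promoter were found in the RefSeq windows of 15 of the 9715 tested genes that have a window. ATP5ME and MYL5, both among them, share a single match at chr4:674433-674449. Of the 15 genes, 2 were lower in SFN (TXNIP and TIGD1) and 2 higher (KCTD5 and P4HA1), which is 13.3% in each direction. Of the genes without the elements, 14.6% were lower and 8.82% higher. The median log2 fold change was 0.17 with the elements, beside -0.03 without them. The 2 lower genes include TXNIP itself, whose fall was known before the count. P4HA1, a subunit of the prolyl hydroxylase of collagen, had the larger increase (log2 fold change 0.79, edgeR quasi-likelihood, adjusted p = 2.4e-04), KCTD5 had 0.51 (adjusted p = 0.0018) and TIGD1 had -0.63 (adjusted p = 0.0099). GFPT1, which controls entry into the hexosamine pathway, was also among the 15 and did not pass (0.26, adjusted p = 0.15). The matches, in the direction of the motif and on GRCh38.p14, differ in their letters between these genes, with capitals over the whole match.
TXNIP, chr1:145996651-145996667: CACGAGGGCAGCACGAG
TIGD1, chr2:232550742-232550758: CACGAGCCACTCACGCG
KCTD5, chr16:2682290-2682306, reverse strand of the gene: CACGAGCGGTGCACGAG
P4HA1, chr10:73097019-73097035: CACGGGCCGGCCACGGG
GFPT1, chr2:69387317-69387333, reverse strand of the gene: CACGCGCCGCTCACGCG

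TXNIP was among the 15 the gene that also had 2 CCAAT boxes in its window, and HSPBAP1, HPF1 and STX12 had 1. Of the 1219 tested genes with an E-box CACGTG in the window, as in ARRDC4 and MLX, 16.6% were lower and 7.96% higher, beside 14.3% and 8.96% of the genes without it. Of the 1590 tested genes with at least 2 CCAAT boxes, 15.4% were lower and 11.3% higher, beside 14.5% and 8.34% of the rest. These are descriptions of all genes with the letters, with no test of a difference.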
